A study of Mus musculus with 8 samples.

Results

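The 10 genes described here encode the NAIP–NLRC4 inflammasome and the pyroptotic machinery downstream of it: Naip1, Naip2, Naip5, Naip6, Nlrc4, Pycard, Casp1, Casp4, Gsdmd and Il18. They were chosen by name for their known roles, with earlier results of these data known. All 10 were present among the 25239 genes of the deposited count table. RNA came from epithelial cells of the proximal small intestine of untreated mice, sorted as live EpCAM+ cells without CD45, CD31 or Ter119 at 150000 cells per sample. The 4 CD1d-KO mice carry the genotype CD1d1/2 KO and so lack the lipid-presenting molecule CD1d and the NKT cells selected by it, in every cell of the body. They were compared with 4 WT mice (C57BL/6Jax). The study's methods describe its mice in general as young adults of both sexes, matched for age and sex between genotypes, and the submitters' design text says that these libraries came from 2 experiments. The labels tie neither sex nor experiment to a sample.

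Inflammasomes are protein complexes that assemble in the cytosol when a microbial product or damage is sensed. In mice, NAIP proteins bind bacterial flagellin or the needle and rod proteins of type III secretion systems and then recruit NLRC4, which activates caspase-1. Caspase-1 matures IL-18 and IL-1β and cleaves gasdermin D, whose released fragment perforates the plasma membrane, and caspase-11 (encoded by Casp4) cleaves gasdermin D after binding cytosolic lipopolysaccharide. In the gut epithelium this route is known for the expulsion of infected enterocytes and for constitutive stores of IL-18.

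Total counts per library ranged from 23610266 to 31629435. Cd1d1 had 0 to 8 raw counts in the CD1d-KO libraries and 50 to 94 in the WT libraries, as labelled. Epcam had a mean of 56046 normalized counts in CD1d-KO and 52842 in WT, and the myeloid markers Adgre1, Csf1r and Tyrobp stayed between 0 and 6.7 normalized counts. Itgam, an integrin subunit on the list of leukocyte markers, was far higher, with 678 to 848 in CD1d-KO and 844 to 1169 in WT, and was called lower (log2 fold change -0.40, adjusted p = 0.0127). Other measures set libraries apart. CD1d-KO 1 and 2 held 6235 and 7293 counts of 4 Y-linked genes and the other 6 libraries 0 or 1. The 8 libraries are therefore not matched for sex, and sex overlaps with genotype in part. Fits given below as without Y-linked counts compare CD1d-KO 3 and 4 with WT 1 to 4. The summed normalized count of 23 leukocyte markers was 886 to 1031 in CD1d-KO and 1122 to 2487 in WT. Itgam alone gave 678 to 848 of this sum in CD1d-KO and 844 to 1169 in WT. The summed count of 10 stomach markers was 177 to 830 in CD1d-KO against 1857 to 15230 in WT. In bulk samples such as these, fewer cells of a type and less RNA per cell cannot be told apart.

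To ask whether the steady-state inflammasome programme of the epithelium depended on CD1d, each member was tested in the DESeq2 fit over 15446 genes. No member passed the threshold (0 of 10 at an adjusted p under 0.05), where 622 of 15446 genes did (4.03%, with 1.65% higher and 2.38% lower in CD1d-KO). At an unadjusted p under 0.05 there were 2 members, Casp4 and Pycard, both lower in CD1d-KO, against 15.3% of all genes. edgeR's quasi-likelihood test also called 0 members and placed 2 under an unadjusted p of 0.05. For 0 of 10 members did the values of the 4 CD1d-KO libraries lie wholly above or below those of the 4 WT libraries, against 9.61% of all genes tested (4.09% higher and 5.52% lower in CD1d-KO). The log2 fold changes, given throughout as CD1d-KO minus WT, were above 0 for 3 members (50.3% of all genes tested) and below 0 for 7, with a median of -0.05 beside 0.001 over all genes tested. For 9 members the 95% interval of the fold change lay within 1.5-fold in either direction, and only the interval of Casp4 went past that bound.

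**Figure D1:**
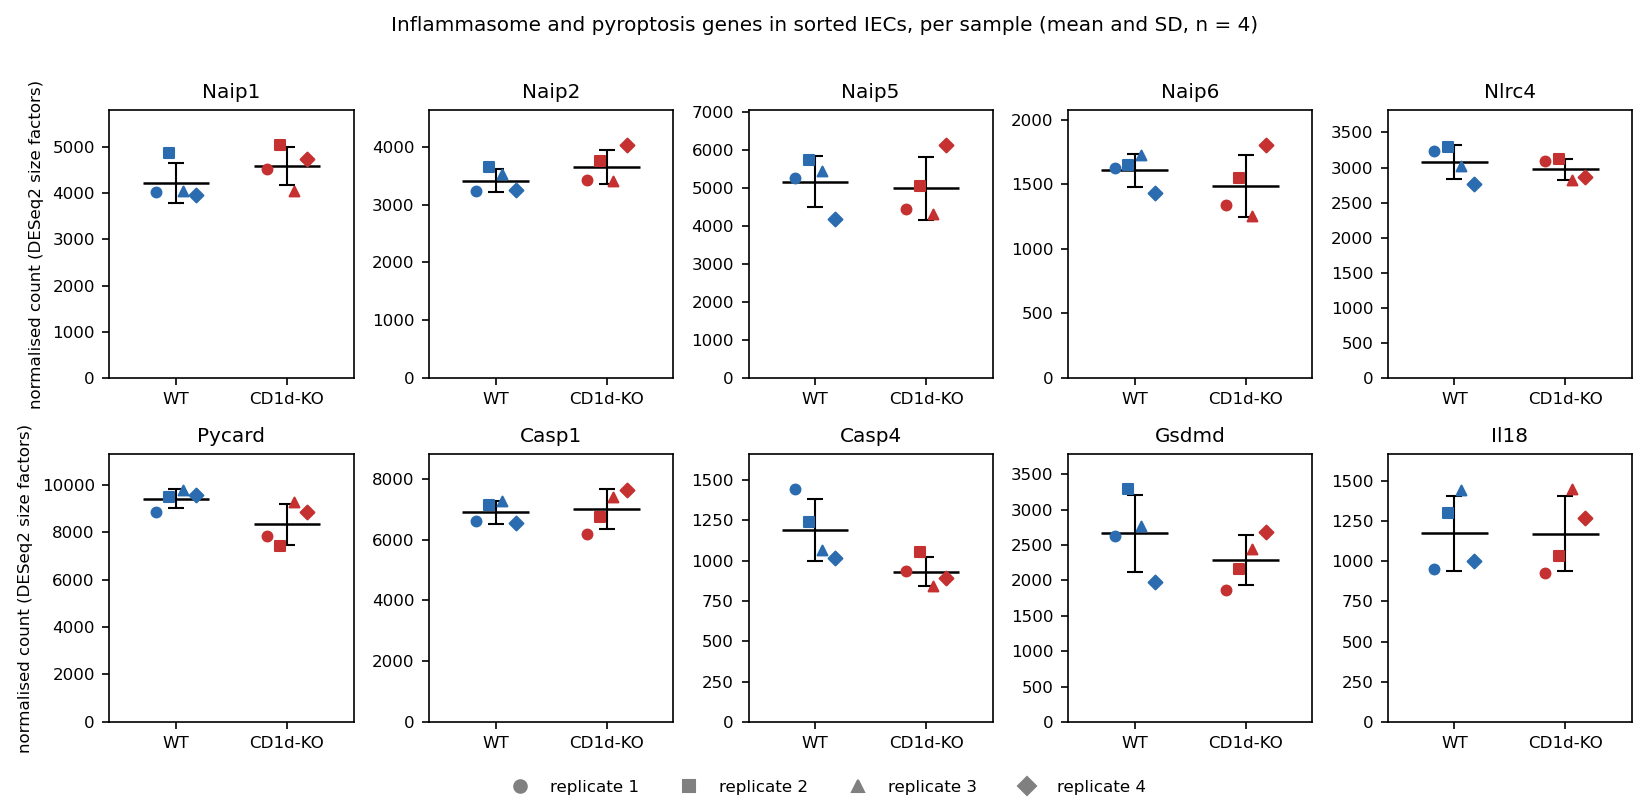
Normalized counts of the 10 members in each library (y axis, starting at 0), with CD1d-KO and WT side by side; points are single mice and bars the mean with its SD (n = 4). The points of both genotypes overlap for every member, and the CD1d-KO mean of Casp4 (932) lies below its WT mean (1192).

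The levels of the members can be compared with each other only per length of transcript, as TPM computed from the counts and the exon lengths of the table. In WT epithelium the protease and the adaptor stood at the top, with Casp1 at 379 ± 18.0 TPM and Pycard at 367 ± 14 TPM (SD, n = 4). These means were at the 98 and 97.9 percentiles of the 19088 genes with a count in any library. Those 2 overlapped each other and lay above Gsdmd at 125 ± 24.7 TPM, which in turn did not overlap the next gene. Naip5 (81.1 ± 10.3 TPM), Il18 (75.2 ± 14.6), Casp4 (68.7 ± 11.3), Nlrc4 (66.7 ± 5.09), Naip1 (65.6 ± 6.32) and Naip2 (58.6 ± 3.08) formed a run in which each gene overlapped its neighbour. Naip6 had 19.96 ± 1.52 TPM over its full exon length and has no firm place in the order, since 4707 of its 6705 exonic bases are shared in the table with a second listed gene, Naip7, and read pairs that fall equally on both genes were not counted. Taken over the 1998 free bases alone, its level would be 67 TPM in WT and 61.9 TPM in CD1d-KO, beside 58.6 to 81.1 TPM for the other Naip genes in WT. In CD1d-KO, Casp1 (384 ± 27.7 TPM) again came first. There Pycard, at 324 ± 23.9 TPM, no longer overlapped Casp1, Gsdmd at 107 ± 14.3 TPM overlapped Naip5, and Casp4 moved from the sixth place to the ninth with 53.8 ± 6.77 TPM.

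**Figure D2:**
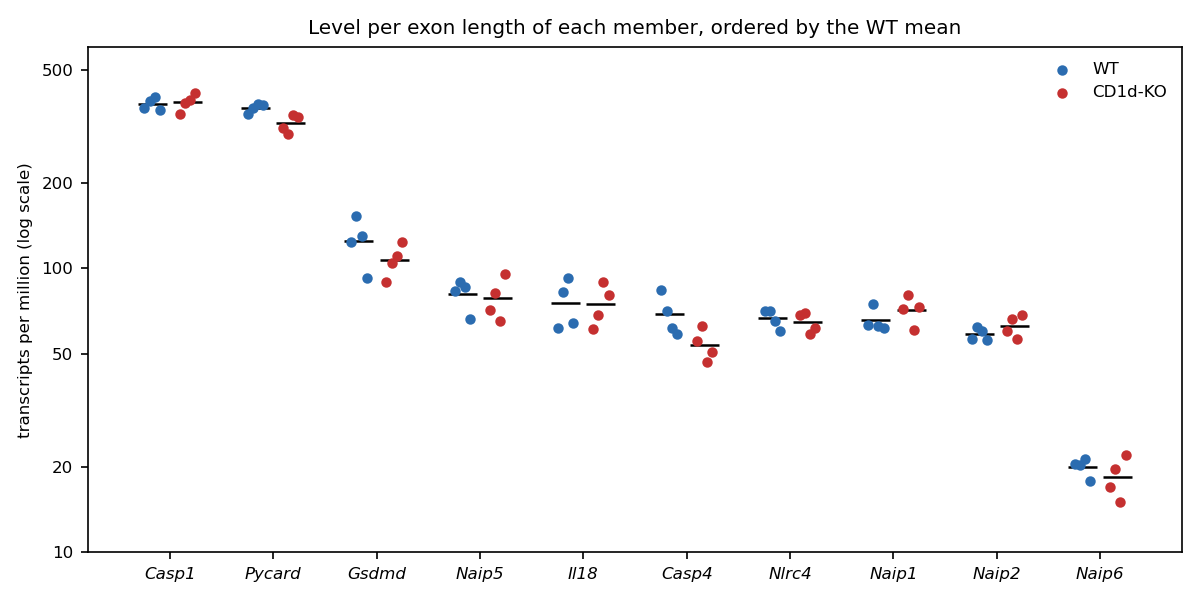
Level of each member in TPM (log axis) in WT and CD1d-KO libraries, ordered by the WT mean; points are single mice and lines the mean. The means of Casp1 and Pycard lie at 324 to 384 TPM and those of 7 other members at 53.8 to 125 TPM, while the plotted means of Naip6 (18.5 and 19.96 TPM) are over its full exon length, most of which is shared with Naip7.

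The sensors were examined first. The NAIP genes lie side by side on the minus strand of chromosome 13 (mm10, the build of the table's annotation): Naip2 at chr13:100144063-100202122 with 16 merged exons, Naip5 at chr13:100211740-100247336 with 15, Naip6 at chr13:100281121-100316616 with 14, and Naip1 at chr13:100407770-100452864 with 16. They are close relatives. In coding sequence, taken as the longest open reading frame of GENCODE M39 transcripts, Naip5 and Naip6 were 97% identical and the other pairs 89.5% to 91.9% identical. Stretches this alike bear on how reads are assigned to a single gene, and 2 windows of 60 bases mark the extremes. In the most alike window, which codes for a part of the nucleotide-binding domain, the 4 genes had the same sequence (coding bases 1420 to 1479 in Naip1, Naip5 and Naip6, and 1552 to 1611 in Naip2).
Naip1, Naip2, Naip5 and Naip6: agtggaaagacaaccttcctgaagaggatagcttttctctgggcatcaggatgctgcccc

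In the least alike window, at coding bases 2901 to 2960 (3033 to 3092 in Naip2), the genes differed at 36 positions, which are shown in capitals.
Naip1: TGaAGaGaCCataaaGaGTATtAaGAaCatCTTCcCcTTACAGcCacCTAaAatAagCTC
Naip2: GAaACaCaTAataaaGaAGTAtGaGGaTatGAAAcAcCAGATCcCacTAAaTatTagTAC
Naip5: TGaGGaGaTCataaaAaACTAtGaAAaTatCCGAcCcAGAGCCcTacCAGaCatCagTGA
Naip6: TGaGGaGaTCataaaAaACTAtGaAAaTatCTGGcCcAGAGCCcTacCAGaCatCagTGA

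Over the whole transcripts, the share of 100-base windows that also occur in transcripts of another gene was 13.6% for Naip1, 3.37% for Naip2, 16.2% for Naip5 and 6.26% for Naip6. With 50-base windows the shares were 32.5%, 14.7%, 37.5% and 21.5%. The read length is not given in the sources used here, so the share that applies to these counts is not known, and the counts of the single Naip genes are uncertain for that reason. Nlrc4 and Pycard also shared 17.3% and 9.59% of their 100-base windows with another gene (Slc30a6 and Gm45205), although no exon of another listed gene overlapped theirs in the table. For Casp4, Gsdmd and Il18 the share was 0%, and for Casp1 it was 0.768%.

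Naip1, the sensor of type III secretion needle protein, had 4536, 5045, 4058 and 4751 normalized counts in CD1d-KO 1 to 4 and 4032, 4884, 4052 and 3962 in WT 1 to 4. The log2 fold change was 0.12 ± 0.09 (SE; DESeq2 adjusted p = 0.604). WT 2 stood apart from the other WT mice and lay within the CD1d-KO range. Naip2, which senses the inner rod protein, had 3430, 3751, 3408 and 4031 normalized counts in CD1d-KO, against 3246, 3650, 3530 and 3248 in WT. The difference was 0.10 ± 0.08 on the log2 scale (adjusted p = 0.625), and the groups overlapped.

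The flagellin sensors gave small differences of the opposite sign. Naip5 had 4447, 5066, 4327 and 6128 normalized counts in CD1d-KO against 5254, 5728, 5461 and 4196 in WT, and the log2 fold change was -0.05 ± 0.12 (adjusted p = 0.932). Naip6 counts were 1341, 1547, 1259 and 1805 in the CD1d-KO mice against 1631, 1650, 1726 and 1432 in the WT mice, and the log2 fold change was -0.11 ± 0.11 (adjusted p = 0.733). For both genes CD1d-KO 4 was the highest of all 8 mice, and WT 4 was the lowest WT mouse. When the counts of the 4 Naip genes were summed before the fit, which sets aside how reads were split among them, the total was 14730 ± 1650 normalized counts in CD1d-KO and 14420 ± 1280 in WT (SD, n = 4). The log2 fold change of the total was 0.03 ± 0.09, with a 95% interval from -0.15 to 0.21 (adjusted p = 0.946). Read pairs that went uncounted, such as those falling equally on Naip6 and Naip7, are missing from this total as well.

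Of the Naip promoters, a long shared stretch was found in 1 pair, which is shown for that reason. In the RefSeq promoters (GRCm38.p6, from 250 bases before to 50 bases after the start), Naip2 and Naip5 share a window of 150 bases with 124 matching bases (82.7%) and an unbroken match of 34 bases, whereas the longest match of the other 5 pairs was 7 to 14 bases, with 7 for Naip5 and Naip6. Matching bases are in capitals, and both sequences are read on the minus strand.
Naip2, chr13:100202073-100202222: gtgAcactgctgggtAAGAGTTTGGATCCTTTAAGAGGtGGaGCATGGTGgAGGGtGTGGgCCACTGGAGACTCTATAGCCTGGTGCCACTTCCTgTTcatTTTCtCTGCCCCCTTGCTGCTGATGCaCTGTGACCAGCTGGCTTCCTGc
Naip5, chr13:100247294-100247443: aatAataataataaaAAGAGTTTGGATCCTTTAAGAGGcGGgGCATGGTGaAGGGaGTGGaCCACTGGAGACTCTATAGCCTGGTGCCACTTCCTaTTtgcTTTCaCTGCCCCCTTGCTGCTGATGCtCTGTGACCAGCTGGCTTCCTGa

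The promoters were also searched on both strands for a motif bound by interferon regulatory factors (GAAA, any 2 bases, GAAA) and for one bound by STAT factors (TTCNNNGAA). These motifs occur in 3.44% and 8.3% of all 32851 promoters in the RefSeq table. Of the members, 9 had a promoter entry, and neither motif was found in any of them.

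Nlrc4 and Pycard link sensor to protease. Nlrc4 (chr17:74426295-74459108, minus strand, 9 exons), the subunit that NAIPs recruit into the wheel-shaped complex, had 3095, 3115, 2824 and 2870 normalized counts in CD1d-KO and 3236, 3295, 3021 and 2768 in WT. Its log2 fold change was -0.05 ± 0.07, with a 95% interval from -0.19 to 0.10 (adjusted p = 0.849), and its SD was the smallest share of the mean among the CD1d-KO values (5.06%). Pycard (chr7:127991373-127993867, minus strand, 3 exons) encodes the adaptor ASC, which joins sensors to caspase-1. It had 7833, 7402, 9261 and 8870 normalized counts in CD1d-KO and 8840, 9471, 9767 and 9566 in WT.

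The CD1d-KO mean of Pycard was 8342 ± 869 and the WT mean 9411 ± 400 (SD, n = 4), a log2 fold change of -0.17 ± 0.08 that did not pass the DESeq2 test (adjusted p = 0.254). CD1d-KO 1 and 2 were the lowest of the 8 mice, and CD1d-KO 3 and 4 lay within the WT range. CD1d-KO 1 and 2 are the libraries with Y-linked counts. Without them the difference was -0.05 on the log2 scale (adjusted p = 0.894). Since they were the lowest CD1d-KO mice, leaving them out had to shrink the difference. The part of sex in the Pycard values was not tested. The genes whose profile over the 8 libraries was closest to that of Pycard, among 11720 genes compared, were Timm17a, Atp5g1 and Coa3, which encode mitochondrial proteins. Their root-mean-square differences from it were 0.03, 0.03 and 0.04 on the log2 scale, beside 0.13 for the spread of Pycard about its own mean.

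The inflammatory caspases lie next to each other on the plus strand of chromosome 9, Casp1 at chr9:5298517-5307281 (10 exons) and Casp4 at chr9:5308849-5336791 (9 exons). Casp1 had 6183, 6739, 7413 and 7634 normalized counts in CD1d-KO and 6598, 7140, 7271 and 6555 in WT. The means were 6992 ± 660 and 6891 ± 367 (SD, n = 4), and the log2 fold change was 0.02 ± 0.08 (adjusted p = 0.958). The 95% interval of the fold ran from 0.911 to 1.13.

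Casp4 showed the largest difference of the 10. It had 938, 1055, 844 and 893 normalized counts in CD1d-KO and 1443, 1238, 1069 and 1018 in WT. CD1d-KO 2 alone reached into the WT range, above WT 4. The means were 932 ± 90.5 and 1192 ± 192 (SD, n = 4), and the log2 fold change was -0.36 ± 0.12, a ratio of 0.782 with a 95% interval from 0.666 to 0.918. DESeq2 did not call it (adjusted p = 0.0614).

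The value of Casp4 lay near the threshold and moved across it with the libraries used. The adjusted p was 0.0429 in the 6 libraries without Y-linked counts, with a log2 fold change of -0.46, and rose to 0.246 without WT 1, with a log2 fold change of -0.25. With edgeR it was 0.141. The WT mice ranked in the same order by Casp4 and by the summed leukocyte markers, which were 2487, 1529, 1294 and 1122 normalized counts in WT 1 to 4. In CD1d-KO 1 to 4 those markers summed to 1031, 917, 886 and 979, and the CD1d-KO mice ranked in another order by Casp4. Itgam alone gave 848, 768, 678 and 739 of the sums in CD1d-KO 1 to 4. In WT 1 to 4 it gave 1169, 1029, 969 and 844. Ptprc, which encodes the leukocyte antigen CD45 used to exclude these cells from the sort, had a mean of 54.5 normalized counts in CD1d-KO and 96.3 in WT. Of the 24 leukocyte markers, 18 were tested and 6 passed, all lower in CD1d-KO, against 2.38% of all tested genes. At an unadjusted p under 0.05 there were 13, against 15.3% of all tested genes. The log2 fold change was below 0 for 17 and above 0 for 1, where 50.3% of all tested genes were above 0. The part of these markers in the Casp4 value was not tested. The genes with the profile closest to that of Casp4 were Plxna3, Myom3 and Slc49a4, with root-mean-square differences of 0.08, 0.09 and 0.09 on the log2 scale beside 0.24 for the spread of Casp4 about its own mean.

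Gsdmd (chr15:75862339-75867404, plus strand, 11 exons), the pore-forming substrate of both caspases, had 1867, 2156, 2447 and 2680 normalized counts in CD1d-KO and 2624, 3285, 2771 and 1970 in WT. Its means were 2287 ± 353 and 2663 ± 542 (SD, n = 4). The ratio was 0.859, with a 95% interval from 0.705 to 1.05, and the log2 fold change was -0.22 ± 0.15 (adjusted p = 0.515). The lowest mouse of either genotype, CD1d-KO 1 and WT 4, lay below all other mice. Without the libraries with Y-linked counts the log2 fold change was -0.05 (adjusted p = 0.957).

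Il18 (chr9:50554700-50581841, plus strand, 8 exons), the cytokine of the set, had 929, 1035, 1449 and 1268 normalized counts in CD1d-KO and 954, 1298, 1442 and 1001 in WT. The means of 1170 ± 233 and 1174 ± 235 (SD, n = 4) were nearly the same. The log2 fold change was -0.01 ± 0.16 (adjusted p = 0.996), and the interval of the fold ran from 0.804 to 1.23. The SD was 20% of the mean in either genotype, the largest such share of any member in CD1d-KO. The 3 lowest mice, CD1d-KO 1, WT 1 and WT 4, were also the 3 lowest by the summed count of 10 enterocyte markers, at 129810, 129050 and 134470 normalized counts against 160200 to 201310 in the other libraries. The part of those markers in the Il18 values was not tested. In the 6 libraries without Y-linked counts the Il18 difference was 0.21 on the log2 scale (adjusted p = 0.708).

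Summed over the 10 members, the normalized counts were 34600, 36913, 37288 and 40930 in the CD1d-KO mice against 37858, 41639, 40110 and 35717 in the WT mice. The lowest and the second highest mouse were both CD1d-KO, and the groups overlapped.

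**Figure D3:**
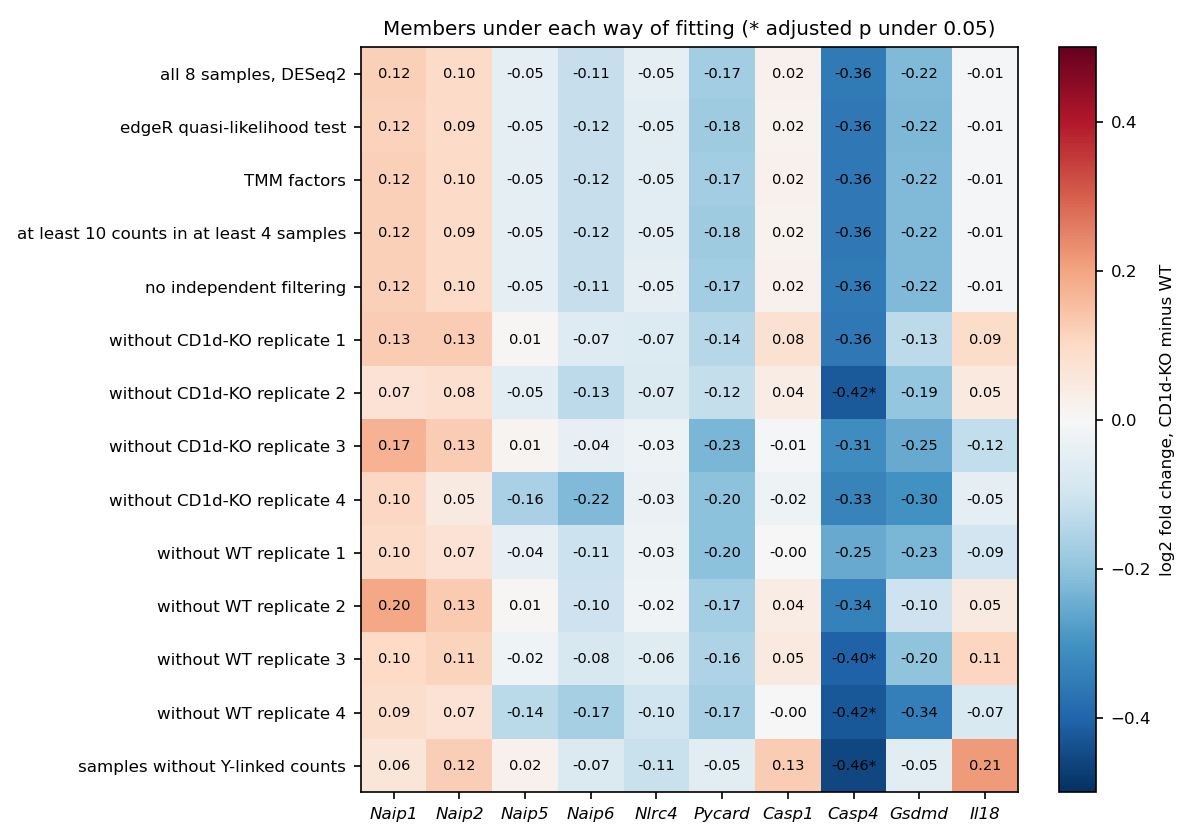
Log2 fold change (colour and printed value, CD1d-KO minus WT) of the 10 members (columns) under the reported fit and 13 other ways of fitting (rows); an asterisk marks an adjusted p under 0.05. Casp4 alone carries asterisks, in 4 of the 13, and Casp1, Naip5 and Il18 change sign between rows.

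Beyond the members, 55 further genes of inflammasome sensing, regulation, cell death and the IL-1 family were examined. Of them 42 were tested and 6 passed, all lower in CD1d-KO, against 2.38% of all tested genes, with a median log2 fold change of -0.13 over the 42. The most calls in any list fell among the pore-forming proteins, where 3 of 7 tested genes were lower, and the sensors (1 of 5), regulators (1 of 10) and caspases (1 of 6) held 1 each. None of 9 genes of the IL-1 family and none of 5 necroptosis genes passed in DESeq2 or in edgeR. The 4 calls of edgeR among the pathway genes were Gsdmc2, Gsdmc3, Gsdmc4 and Irf1. At an unadjusted DESeq2 p under 0.05 there were 1 of the 9 and 3 of the 5. Of all 42 there were 15, against 15.3% of all tested genes.

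**Figure D4:**
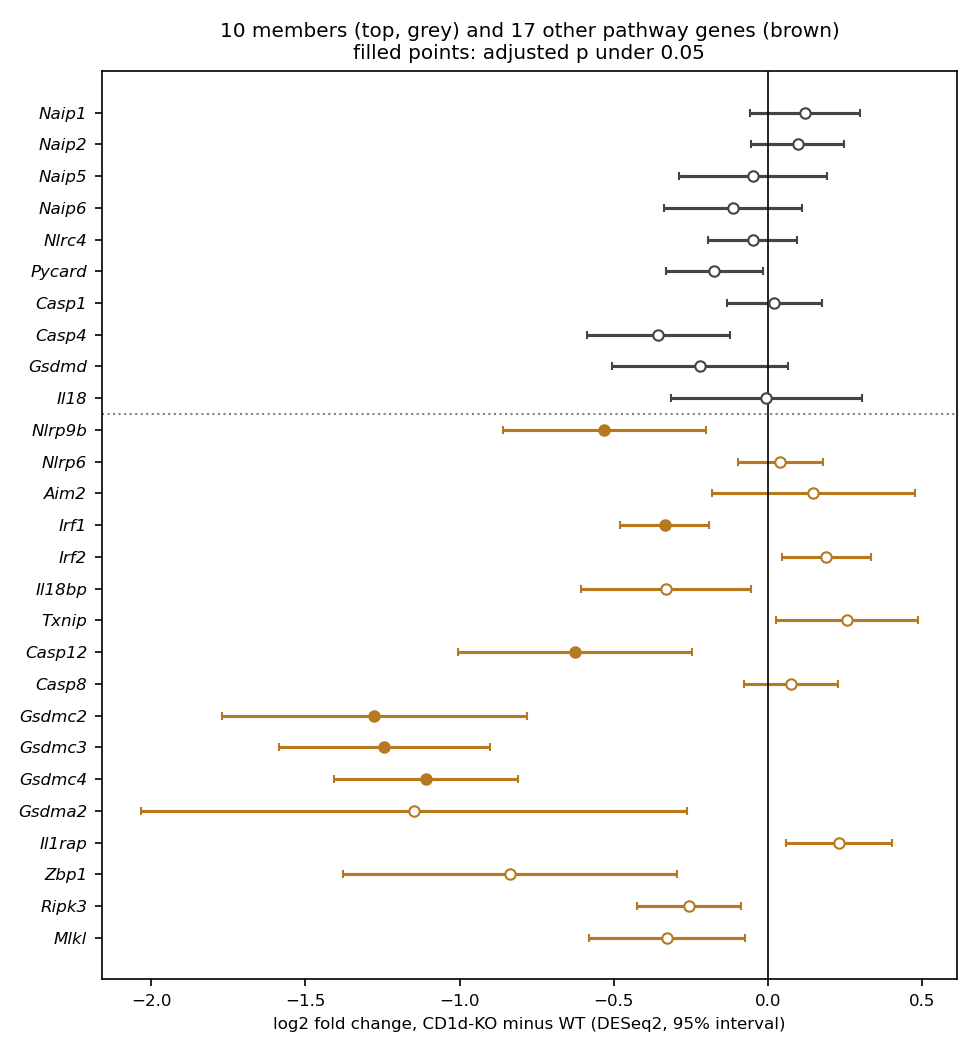
Log2 fold change (x axis, CD1d-KO minus WT) with its 95% interval from DESeq2 for the 10 members (grey, upper part) and 17 other pathway genes (brown, lower part), filled points marking an adjusted p under 0.05 and the vertical line no change. The intervals of Casp4 (-0.59 to -0.12) and Pycard (-0.33 to -0.02) lie below 0 and those of the other 8 members include it, no member has a filled point, and the 6 filled points of the other genes all lie below 0.

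The pore-forming genes that fell were Gsdmc2, Gsdmc3 and Gsdmc4, gasdermin C genes of the gut epithelium known to respond to type 2 cytokines, which lie on chromosome 15. Gsdmc2 had 1556, 1085, 966 and 1822 normalized counts in CD1d-KO against 3032, 4202, 2854 and 3059 in WT, which gave a log2 fold change of -1.28 ± 0.25 (adjusted p = 5.79e-05). Gsdmc3 had 681, 506, 395 and 681 in the CD1d-KO mice against 1361, 1709, 1150 and 1139 in the WT mice, with a log2 fold change of -1.24 ± 0.17 (adjusted p = 5.74e-10). Gsdmc4 had 2749, 2241, 2287 and 3169 in the CD1d-KO mice against 4385, 7479, 5083 and 5602 in the WT mice, with a log2 fold change of -1.11 ± 0.15 (adjusted p = 2.01e-10).

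In all 3 genes every CD1d-KO mouse lay below every WT mouse, as was so in this direction for 5.52% of all tested genes. The Gsdmc genes are close copies of each other, so the split of reads among them is uncertain. The stomach markers were also higher in WT, at 1857, 1923, 15230 and 7081 summed normalized counts in WT 1 to 4, while the highest WT mouse for Gsdmc2, Gsdmc3 and Gsdmc4 was WT 2. In CD1d-KO 1 to 4 the stomach markers summed to 227, 212, 177 and 830. The CD1d-KO mice ranked in the same order by these sums and by Gsdmc2, but not by Gsdmc3 or Gsdmc4. The part of the stomach markers in the Gsdmc values was not tested.

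Set beside Gsdmd per length, Gsdmc4 stood at 225 ± 51.2 TPM in WT and Gsdmc2 at 118 ± 21.4 TPM, with Gsdmd at 125 ± 24.7 TPM. The log2 ratio of the summed normalized counts of the 3 Gsdmc genes to Gsdmd was 1.42, 0.829, 0.576 and 1.08 in the CD1d-KO mice against 1.74, 2.03, 1.71 and 2.31 in WT. The means differed by -0.97, which is given without a test, since the Gsdmc genes entered the ratio after their values were seen. Gsdma2, a gasdermin of the stomach, had a log2 fold change of -1.15 that did not pass (adjusted p = 0.147), though it passed without WT 1 (-1.44, adjusted p = 0.0144) and was -0.66 without WT 3 (adjusted p = 0.581). Its highest mice, WT 3 and WT 4 with 129 and 83.1 normalized counts, were those with the most stomach markers.

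**Figure D5:**
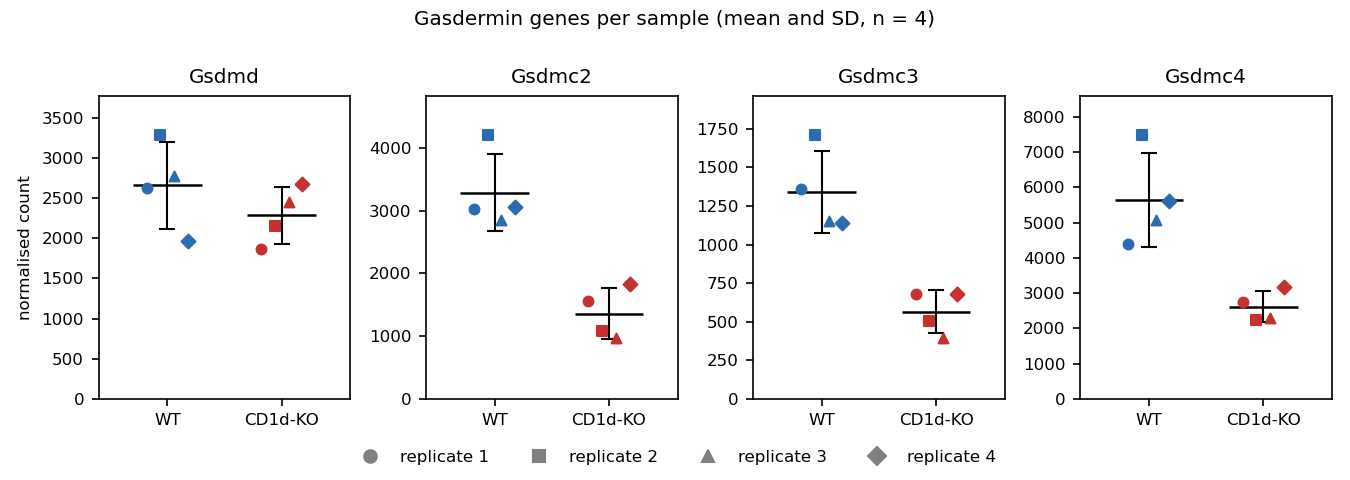
Normalized counts of Gsdmd, Gsdmc2, Gsdmc3 and Gsdmc4 in each mouse (y axis), with the mean and SD of each genotype (n = 4). The CD1d-KO and WT mice overlap for Gsdmd and are fully separated for the 3 Gsdmc genes.

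Among regulators, Irf1, an interferon-induced transcription factor, fell. It had 4986, 5510, 5847 and 5919 normalized counts in CD1d-KO and 7368, 7343, 6656 and 6707 in WT, without overlap, and a log2 fold change of -0.33 ± 0.07 (adjusted p = 0.000465). In the 6 libraries without Y-linked counts its log2 fold change was -0.25 (adjusted p = 0.0647). Il18bp, which encodes the secreted inhibitor of IL-18, was 111 to 128 in CD1d-KO and 145 to 165 in WT, with a log2 fold change of -0.33 (adjusted p = 0.197). Irf2, known to drive Gsdmd transcription, had a log2 fold change of 0.19 (adjusted p = 0.141) that passed without CD1d-KO 3 (0.23, adjusted p = 0.0423), and Txnip, a binding partner of NLRP3, one of 0.26 (adjusted p = 0.253).

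Of the other sensors, Nlrp6, a member of the NLR family abundant in gut epithelium, was the most expressed, with 17284 ± 1134 normalized counts in CD1d-KO and 16805 ± 1048 in WT (SD, n = 4) and a level of 315 TPM in WT. Its log2 fold change was 0.04 (adjusted p = 0.876). Nlrp9b, an intestinal sensor of viral RNA, fell from 1053 ± 250 in WT to 730 ± 116 in CD1d-KO, a log2 fold change of -0.53 ± 0.17 (adjusted p = 0.0426). Its log2 fold change ranged from -0.68 to -0.43 when 1 mouse was left out (adjusted p up to 0.205) and was -0.39 without the libraries with Y-linked counts (adjusted p = 0.38). Aim2, the sensor of cytosolic DNA, had a log2 fold change of 0.15 (adjusted p = 0.785). Nlrp3, Nlrp1a, Nlrp10 and Mefv were near 0 counts in every library.

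The remaining call was Casp12, a caspase of the same cluster as Casp1 and Casp4, with 112 ± 10.6 normalized counts in CD1d-KO and 172 ± 42.6 in WT and a log2 fold change of -0.63 ± 0.19 (adjusted p = 0.0364). Without 1 mouse the log2 fold change ranged from -0.77 to -0.49 (adjusted p up to 0.213), and without the libraries with Y-linked counts it was -0.52 (adjusted p = 0.394). Casp8, the initiator caspase that NLRC4 can also engage, had a log2 fold change of 0.08 (adjusted p = 0.743). In the necroptosis group, Zbp1, Ripk3 and Mlkl, which encode its nucleic acid sensor, kinase and executioner, had log2 fold changes of -0.84, -0.26 and -0.33 with adjusted p of 0.0568, 0.0649 and 0.147. In the 6 libraries without Y-linked counts these were -0.34 for Zbp1 (adjusted p = 0.54), -0.25 for Ripk3 (adjusted p = 0.34) and -0.13 for Mlkl (adjusted p = 0.827). Without CD1d-KO 3 all 3 passed, at -1.17, -0.30 and -0.43 (adjusted p = 0.000153, 0.0321 and 0.0187), and Zbp1 passed without CD1d-KO 4 as well (-0.94, adjusted p = 0.0462). The Ripk3 values of 1392 to 1626 in CD1d-KO lay below those of 1651 to 2047 in WT. Il1rap, the shared co-receptor of the IL-1 family, had the opposite direction, with a log2 fold change of 0.23 (adjusted p = 0.12) and values of 483 to 546 in CD1d-KO above those of 428 to 462 in WT, a direction without overlap shared by 4.09% of all genes. Il1b, the other cytokine matured by caspase-1, was nearly absent from these libraries, with 0.894, 0, 0 and 0 normalized counts in CD1d-KO 1 to 4 and 33.4, 3.14, 0 and 0 in WT 1 to 4. Its test did not pass (adjusted p = 0.459), and WT 1, the one mouse with more than a few counts, was also the highest for the summed leukocyte markers.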

How the data were processed

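Bulk RNA-seq of sorted intestinal epithelial cells from 4 CD1d-KO and 4 WT mice was analysed. The deposited file holds raw counts per gene, which the authors made with poly(A)-selected KAPA mRNA libraries, HISAT2 and featureCounts 1.6.4 (per the file header, with an mm10 annotation, while the labels and methods name GRCm39). Coordinates are those of the table. All 8 sample columns were used, and 0 were left out. Differences were fitted in R 4.3.3 with DESeq2 1.42.0 (Wald test, genotype as the sole term, Benjamini-Hochberg adjustment over 15446 genes, threshold 0.05). Normalized counts are counts divided by DESeq2 size factors. SE and 95% intervals are those of DESeq2. The scripts were tested on simulated data. TPM was computed from counts and exon lengths. Profiles were compared on log2(normalized count + 1) for genes with a mean of at least 50. Sequences came from RefSeq (GRCm38.p6 promoters) and GENCODE M39 transcripts, aligned with mafft 7.526.

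Alternatives were edgeR 4.0.16 (quasi-likelihood), TMM factors, at least 10 counts in at least 4 samples, no independent filtering, leaving out each sample, leaving out samples with over 100 Y-linked counts, a replicate block, and summed Naip counts. Named are the 10 members, the label and sex checks, other pathway genes that were called or at most the 4 most extreme of a list, the 3 closest profiles of the 2 members with the smallest adjusted p, and markers at or near 0 or among the 3 most extreme. The members, lists and rules were chosen with earlier results of these data known. Replicates are separate mice per the study's methods. Within a genotype all pairs of libraries differed beyond sampling noise (chi-square per degree of freedom from 10.23 to 39.51).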

Additional observations from a re-analysis of the deposited data

Results flagged for a closer look

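In 3 groups of 4 mice, 1 mouse stood apart from the other 3, with a gap to the nearest of them that exceeded 0.829 of the whole range of the group. Naip1 in WT 2 was at 4884 normalized counts, against 3962 to 4052 in the other WT mice (gap ratio 0.902). Casp8 in CD1d-KO 3 was at 3884 against 3152 to 3242 (gap ratio 0.876). Gsdmc2 in WT 2 was at 4202 against 2854 to 3059 (gap ratio 0.848). Of 54 groups examined these were the 3 that stood out, and chance alone flags about 1 in 20 groups.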

How the results depend on the processing

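Over the 14 alternatives, the 10 members gave 140 values, of which 122 kept their direction and their side of the threshold, 5 passed it in addition (all Casp4) and 13 changed sign. None of the 4 Naip genes passed under any alternative. The members that changed sign, Casp1, Naip5 and Il18, had log2 fold changes of 0.02, -0.05 and -0.01 in the reported fit. When 1 mouse was left out, Casp1 ranged from -0.0239 to 0.077 on the log2 scale (below 0 without CD1d-KO 3 or 4 or WT 1 or 4), Il18 from -0.125 to 0.11 (above 0 without CD1d-KO 1 or 2 or WT 2 or 3) and Naip5 from -0.162 to 0.0145 (above 0 without CD1d-KO 1 or 3 or WT 2). In the samples without Y-linked counts Il18 was at 0.21 and Naip5 at 0.0197. Of the other pathway genes, Aim2 was at -0.0181 in those samples, and Nlrp6 ranged from -0.00294 (without WT 1) to 0.0812. The cause was not tested.

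The number of members called was 1 (Casp4) in the samples without Y-linked counts and ranged from 0 to 1 when 1 mouse was left out, with 1 without CD1d-KO 2, WT 3 or WT 4. The adjusted p of Casp4 ranged from 0.0187 to 0.246 over the alternatives. Over all genes, edgeR called 228 (224 shared with DESeq2), the samples without Y-linked counts 372, and the fits without 1 mouse 323 to 646 (323 without CD1d-KO 2, 385 without WT 2 and 406 without WT 1). Of the other pathway genes, 4 passed in edgeR, 3 in the samples without Y-linked counts, and 4 to 8 without 1 mouse.

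The labels number the mice 1 to 4 in each genotype. Deviations of same-numbered mice from their group means correlated at 0.285, 0.025, 0.221 and 0.00395 over 11721 genes, and not every mouse correlated best with its own number, so the numbers were not taken as pairs. With a replicate block 569 genes were called and 1 member, Casp4 (log2 fold change -0.35, adjusted p = 0.0189). Of the other pathway genes named, Txnip (0.26, adjusted p = 0.0138) and Zbp1 (-0.95, adjusted p = 0.0027) passed in addition, and Nlrp9b (-0.51, adjusted p = 0.463) and Casp12 (-0.60, adjusted p = 0.103) did not pass. The block changed no other call among the named genes.

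With 4 mice a genotype, differences smaller than the intervals given could not be detected. Sex overlaps with genotype in part, and the experiment of each library is not given in the labels, so its part in the values could not be separated.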
